A study of Homo sapiens with 36 samples.

Results

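The mitochondrial respiratory chain genes encode the subunits of complexes I to V and some of their assembly factors. They were taken as every gene whose symbol in the platform annotation begins with NDUFA, NDUFB, NDUFC, NDUFS, NDUFV, SDHA to SDHD, UQCR, COX4 to COX8 or ATP5. Pseudogenes (6) were left out, a probe had to be detected (detection p under 0.05) on 3 or more arrays, and each gene was read from its probe with the highest mean. Of 95 genes matched, 88 were tested, among 13582 genes tested in all. They comprised 35 genes of complex I, 3 of complex II, 8 of complex III, 13 of complex IV, 17 of complex V (ATP synthase), 11 assembly factors of complexes I and II, and ATP5IF1, the inhibitor of ATP synthase.

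The cells were THP-1, a human monocytic leukaemia line, and their transcripts were measured on Illumina bead arrays of the HumanHT-12 v4 type. The study asked how SB203580 (SB), an inhibitor of the p38 MAP kinase, altered the response of these cells to LPS, the bacterial endotoxin, and to gp120, the HIV envelope glycoprotein. The 12 groups had 3 biological replicates each, 36 arrays in all. At 24 h and at 4 h alike they were SB+LPS, SB+gp120, LPS alone, gp120 alone, SB alone and control. LPS was given at 1 µg/ml and gp120, of strain SF162, at 1 nM, and SB at 10 µM was added 15 min before the stimulus. DMSO and BSA were the vehicles of SB and gp120. The cells were a single line of tumour origin, all groups were cultures of it, and no group lacked p38 by mutation. Of 12 monocytic markers with a probe, 12 were detected and 11 of them on all 36 arrays. Of 15 markers of other cell types, 9 were detected on 3 or more arrays and 3 on all arrays (NCAM1, NKG7 and PPBP), whereas CD3E, KLRD1, PF4, COL1A1 and COL3A1 were detected on none.

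Complexes I to IV pass electrons from NADH and succinate to oxygen and, complex II apart, pump protons across the inner mitochondrial membrane. Complex V uses the proton gradient to make ATP. Complex II is also the succinate dehydrogenase of the tricarboxylic acid cycle. Most subunits are encoded in the nucleus, and assembly factors insert cofactors and join the subunits without remaining in the finished complex. In macrophages, inflammatory stimuli are known to shift energy metabolism toward glycolysis and to alter complex II activity.

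Promoter sequences are shown for 4 members that recur in the results below. NDUFA13 and NDUFB11 are the complex I subunits called higher with LPS at 4 h both without and with SB, and SDHAF3 and SDHD are a complex II assembly factor and a complex II subunit that were lower with LPS. Each line gives the 250 bases before the annotated gene start, 5′ to 3′ on the gene's strand, from RefSeq on GRCh38.p14. Capitals mark matches to the ETS motif CCGGAAG or its reverse complement CTTCCGG, and to the NRF1 motif, a palindrome of 10 bases that is the first capital stretch of SDHD and reads the same on both strands. NDUFA13 lies on the plus strand at chr19:19515975-19516224, NDUFB11 on the minus strand at chrX:47144703-47144952, SDHAF3 on the plus strand at chr7:97117448-97117697 and SDHD on the plus strand at chr11:112086623-112086872.
NDUFA13: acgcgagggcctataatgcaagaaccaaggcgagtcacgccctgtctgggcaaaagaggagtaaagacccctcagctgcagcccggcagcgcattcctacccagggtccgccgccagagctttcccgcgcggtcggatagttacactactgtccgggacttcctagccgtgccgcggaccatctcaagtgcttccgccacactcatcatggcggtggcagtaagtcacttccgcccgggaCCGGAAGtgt
NDUFB11: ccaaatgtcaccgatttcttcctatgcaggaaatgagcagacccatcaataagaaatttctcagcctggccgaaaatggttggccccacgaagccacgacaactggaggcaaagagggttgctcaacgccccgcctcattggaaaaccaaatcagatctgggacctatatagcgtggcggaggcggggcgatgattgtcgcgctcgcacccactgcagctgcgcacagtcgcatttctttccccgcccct
SDHAF3: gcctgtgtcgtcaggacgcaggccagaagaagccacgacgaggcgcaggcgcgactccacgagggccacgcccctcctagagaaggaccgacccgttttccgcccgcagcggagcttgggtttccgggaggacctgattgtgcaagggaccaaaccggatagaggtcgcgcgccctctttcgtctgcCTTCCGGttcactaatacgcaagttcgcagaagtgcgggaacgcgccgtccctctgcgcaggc
SDHD: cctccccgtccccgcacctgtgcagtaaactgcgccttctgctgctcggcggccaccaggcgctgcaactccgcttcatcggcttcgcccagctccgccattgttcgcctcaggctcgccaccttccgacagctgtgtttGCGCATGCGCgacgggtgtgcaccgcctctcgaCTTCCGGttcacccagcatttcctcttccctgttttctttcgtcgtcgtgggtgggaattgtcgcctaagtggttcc
The 4 promoters differ in these letters: SDHD held both motifs, NDUFA13 and SDHAF3 the ETS motif alone, and NDUFB11 neither.

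A promoter entry existed for 75 of the 88 members, and the motifs were searched on both strands from 250 bases before to 50 after the start. The ETS motif was present in 22 of the 75 (29.3%), against 14.2% of 15842 protein-coding promoters of the same length. The NRF1 motif, named for a factor that binds promoters of many respiratory chain genes, was present in 5 (6.67%), against 1.75%. Median GC content was 61% in the members' promoters and 62.7% in all.

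The respiratory chain transcripts were readily measured. All 3 tested genes of complex II, all 17 of complex V and all 11 assembly factors were detected on all 36 arrays, as were 30 of 35 genes of complex I, 7 of 8 of complex III and 11 of 13 of complex IV. The muscle and testis isoforms of complex IV were the least often detected: COX6A2 on 3 arrays and COX6B2 on 5. Among the 7 matched genes not tested, COX4I2, COX7A1, COX7B2, COX8C and NDUFS6 were detected on 0 arrays, the antisense RNA NDUFB2-AS1 on 1 and NDUFAF8 on 2. All values below are log2 of background-corrected, quantile-normalised intensity, so a difference of 1 is a 2-fold change. A member was called higher or lower at a Benjamini-Hochberg adjusted p under 0.05 over all 13582 genes in limma's moderated test.

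Across the 12 groups these transcripts spanned a narrower range than genes at large. For each gene the range of the 12 group means was taken, and its median was 0.57 over the 88 members and 0.89 over all genes tested. The range passed 1 in 10 of 88 members (11.4%), against 41.6% of all genes. With arrays scaled to equal medians of all probes the median ranges were 1.05 for the members and 1.3 for all genes, and 61.4% of members and 70.1% of all genes passed 1. The replicate spread was also narrower, with a median SD within groups of 0.202 for the members and 0.291 for all genes, and the members' probes were bright (median 12.24, against 8.3). The part of signal strength in the narrower range was not tested. By complex, the median range was 0.67 in complex I, 0.65 in II, 0.61 in III, 0.43 in IV and 0.50 in V.

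ATP5ME, a membrane subunit of ATP synthase, and UQCRC2, core protein 2 of complex III, had the smallest range among the members, 0.21 each. SDHAF3 had the widest, 1.99, with LPS at 4 h its lowest group and SB+gp120 at 24 h its highest. NDUFAF6, a complex I assembly factor, spanned 1.29, with SB+LPS at 4 h its highest group. These extremes were named after their values were seen. UQCR11, a small subunit of complex III, also spanned 1.29, and SB+LPS at 4 h was its lowest group. The last value leaned on 1 dim array: UQCR11 measured 5.43, 6.84 and 6.74 with SB+LPS at 4 h, against 6.90, 6.98 and 7.29 with SB alone.

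**Figure D1:**
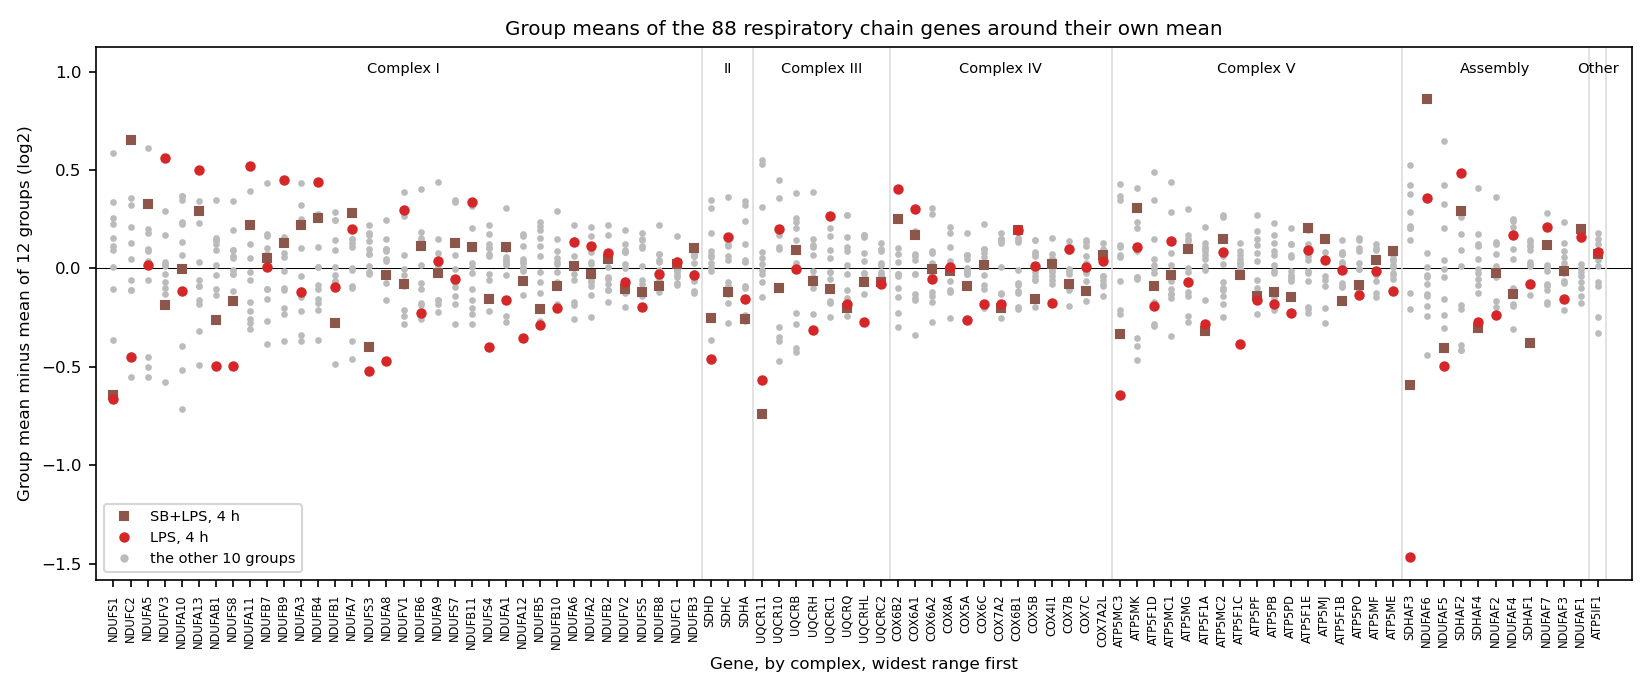
Group means of each of the 88 genes minus that gene's own mean over the 12 groups, in log2 units; genes stand by complex, widest range first. Red circles are LPS at 4 h, brown squares SB+LPS at 4 h and grey points the other 10 groups. SDHAF3, at the left of the assembly factors, has the widest range, 1.99, and its lowest point is LPS at 4 h.

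LPS at 4 h changed single respiratory chain genes in both directions. Against control, 8 members rose and 9 fell, 19.3% of the members. Of all genes tested 26.7% were called, 10.5% higher and 16.2% lower. The median difference was −0.02 over the members and −0.09 over all genes. The call was reached by 5 rises and 5 falls in complex I, 1 fall of 3 in complex II, 1 rise of 8 in complex III, 2 rises of 13 in complex IV, 2 falls of 17 in complex V and 1 fall of 11 among the assembly factors. These arrays are of whole cultures, in which fewer cells of a type and less RNA per cell cannot be told apart. The LPS and control arrays at 4 h were on different slides. With slide as a block, in a model without the three-way interaction of stimulus, SB and time, no member was called, NDUFB11 (−0.21), NDUFB9 (−0.30), UQCRC1 (−0.22), NDUFA11 (−0.55), NDUFA13 (−0.22) and NDUFV1 (−0.20) turned below 0, SDHD (0.06) and NDUFAB1 (0.18) turned above 0, and the median standard error over all genes was 0.469 in place of 0.234.

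Among the complex I genes that rose, NDUFA13 (also known as GRIM-19), an accessory subunit, measured 12.24, 11.96 and 11.78 with LPS at 4 h, against 11.13, 11.30 and 11.50 in controls. All LPS arrays were above all control arrays. The difference was 0.68 (SE 0.176, n = 3 arrays each, limma adjusted p = 0.00429). NDUFB11, an accessory subunit of the membrane arm, measured 12.59, 12.77 and 12.55 with LPS, against 11.99, 11.99 and 12.22 in controls. Again the groups did not overlap, with a difference of 0.57 (SE 0.134, limma adjusted p = 0.00202). NDUFA11, another accessory subunit of the membrane arm, measured 12.17, 12.03 and 11.86 with LPS, against 11.20, 11.19 and 11.34 in controls. The gap between its groups gave a difference of 0.78 (SE 0.224, limma adjusted p = 0.0104).

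NDUFV1, the core flavoprotein at which NADH is oxidised, measured 11.93, 12.32 and 11.94 with LPS at 4 h, against 11.36, 11.49 and 11.60 in controls. Its arrays did not overlap, and it differed by 0.58 (SE 0.175, limma adjusted p = 0.0134). NDUFB9, an accessory subunit named after its values were seen, measured 13.91, 13.60 and 13.32 with LPS, against 13.16, 12.98 and 13.03 in controls. All LPS arrays were higher, by 0.55 on average (SE 0.166, limma adjusted p = 0.0137).

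Of the other complexes, COX6A1, the broadly expressed isoform of complex IV subunit 6A, measured 12.87, 12.81 and 12.64 with LPS at 4 h, against 12.03, 12.18 and 12.17 in controls. The groups were well apart, with a difference of 0.65 (SE 0.169, limma adjusted p = 0.00492). UQCRC1, core protein 1 of complex III, measured 11.94, 11.88 and 11.67 with LPS, against 11.11, 11.40 and 11.44 in controls. It was higher on all LPS arrays, by 0.51 (SE 0.164, limma adjusted p = 0.0204), and was named after its values were seen. COX6B2, the testis isoform of subunit 6B, was called at a difference of 0.63 (limma adjusted p = 0.0265), but it was detected on 1 LPS array and 0 control arrays. With control values under the detection limit set to that limit, the rise was 1.1-fold. Most LPS arrays were also under detection, so the size of the rise is not known.

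The rises depended on the scale set for the arrays. Scaling all arrays to equal medians of all probes moved the median of all genes to −0.67, and NDUFA13 (−0.11), NDUFB11 (−0.17), NDUFA11 (−0.03), NDUFV1 (−0.22), NDUFB9 (−0.02), COX6A1 (−0.06) and UQCRC1 (−0.29) then had values below 0 that lay above that median. Of the members, 1 was then called higher and 50 lower. Scaling to the medians of the 12549 probes detected on all arrays, chosen after seeing the data, moved the median of all genes to 0.21 and gave 11 members higher and 5 lower. Replicate 1 of LPS at 4 h was one of the 2 dimmest arrays of the series, with replicate 1 of SB+LPS at 4 h. Without both, 4 members were called higher (NDUFB11, NDUFA13, NDUFV1 and COX6A1) and 4 lower (SDHAF3, NDUFS1, NDUFS3 and NDUFS4).

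**Figure D2:**
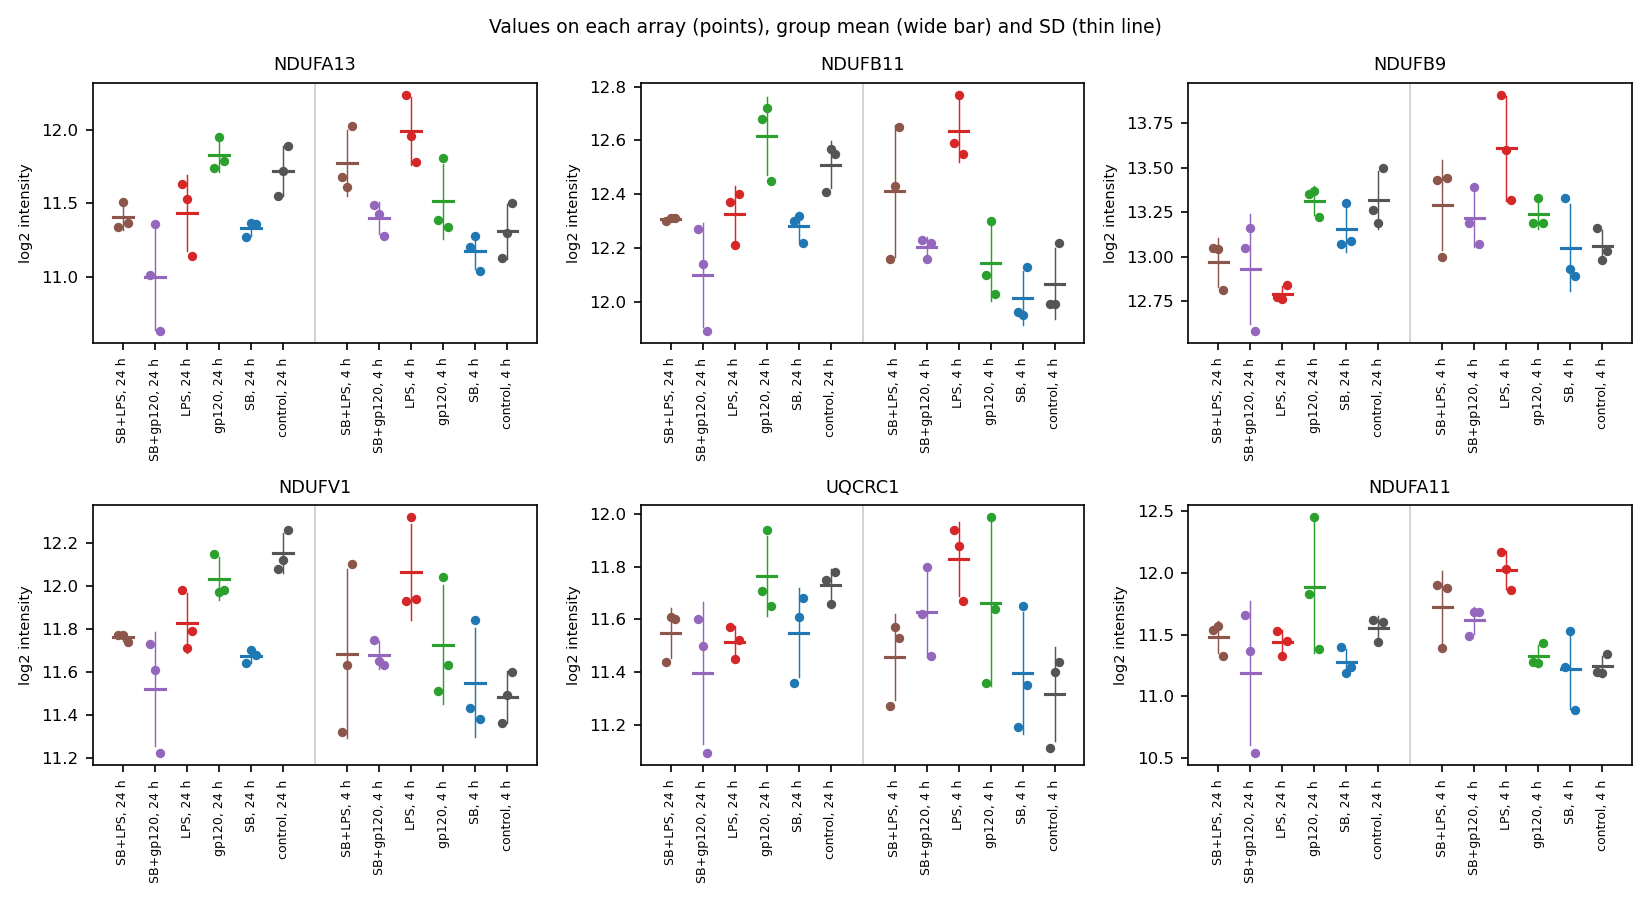
Log2 intensity on every array for 6 members called higher with LPS at 4 h; points are arrays, wide bars group means and thin lines the SD (n = 3), with 24 h left and 4 h right of the grey line and a separate scale per gene. In each panel the 3 LPS arrays at 4 h lie above the 3 control arrays at 4 h.

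The largest fall of a called member was in complex II assembly. SDHAF3, which guards the iron-sulfur subunit of complex II while it matures, measured 7.74, 9.18 and 9.63 with LPS at 4 h, against 10.03, 10.81 and 10.96 in controls. The LPS arrays were all lower and spread widely. The difference was −1.75 (SE 0.331, limma adjusted p = 0.000211), a fall of 3.36-fold. The lowest LPS array was the dim one, and without the 2 dimmest arrays the difference was −1.20 (limma adjusted p = 0.00393). SDHAF3 was lower under both scalings to equal medians, at −2.57 and −1.67, and at −0.58 (limma adjusted p = 0.735) with slide as a block.

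Within complex II itself, SDHD, the small membrane anchor, measured 10.93, 11.41 and 11.95 with LPS at 4 h, against 11.98, 12.42 and 12.33 in controls. The highest LPS array lay just under the lowest control array. The difference was −0.81 (SE 0.22, limma adjusted p = 0.00663), and −0.56 (limma adjusted p = 0.0959) without the 2 dimmest arrays. SDHC, the other membrane anchor, was not called, with 12.21, 12.42 and 12.16 with LPS, against 12.08, 11.96 and 11.86 in controls. Its LPS arrays all lay above its control arrays, and the difference was 0.30, opposite in direction to that of SDHD. SDHA, the catalytic flavoprotein, was not called either, with a difference of 0.08 and a 95% confidence interval of −0.41 to 0.57. Of the 3 measured subunits of complex II, SDHD alone was called in the main test. With equal medians of all probes 0 of the 3 were called higher and 1 lower, and with medians of detected probes 1 higher and 1 lower. SDHB, the iron-sulfur subunit, was not among the genes matched in the platform annotation and so was not tested.

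Among the complex I genes that fell, NDUFS1, the largest core subunit, which carries iron-sulfur clusters, measured 5.39, 5.62 and 5.89 with LPS at 4 h, against 6.69, 6.76 and 7.18 in controls. It was detected on 1 of the 3 LPS arrays and on all 3 control arrays (fitted difference −1.24, SE 0.337, limma adjusted p = 0.00657). With LPS values under the detection limit set to that limit, the fall of the means was 2.05-fold. That figure leaves out the spread between arrays and is not a lower bound on the fall. NDUFS1 stood at −0.55 in the authors' values, which are not background-corrected, and at −0.58, uncalled (limma adjusted p = 0.223), with medians of detected probes. NDUFAB1, the mitochondrial acyl carrier protein and a complex I subunit, measured 12.94, 12.88 and 13.36 with LPS, against 13.38, 13.78 and 13.79 in controls. Its groups were separated by a narrow gap, and it differed by −0.59 (SE 0.174, limma adjusted p = 0.0122).

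NDUFS3, a core subunit of the peripheral arm, measured 11.86, 12.04 and 11.89 with LPS at 4 h, against 12.28, 12.50 and 12.60 in controls. All LPS arrays were lower (−0.53, SE 0.132, limma adjusted p = 0.00336). NDUFS4, an accessory subunit of the same arm, measured 12.31, 12.39 and 12.27 with LPS, against 12.53, 13.04 and 12.95 in controls. It was likewise lower on every LPS array (−0.52, SE 0.138, limma adjusted p = 0.00545). NDUFA12, an accessory subunit, differed by −0.39 (SE 0.125, limma adjusted p = 0.0195), and NDUFS3, NDUFS4 and NDUFA12 were named after their values were seen. Without the 2 dimmest arrays NDUFS3 stood at −0.49 (limma adjusted p = 0.0224) and NDUFS4 at −0.51 (limma adjusted p = 0.0227). Both were called under both scalings to equal medians, and neither with slide as a block, where the values were −0.38 and −0.61.

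In complex V, ATP5MC3, one of the genes for the membrane ring subunit c, measured 6.99, 7.84 and 8.25 with LPS at 4 h, against 7.99, 8.53 and 8.69 in controls. Its groups overlapped, and the difference was −0.71 (SE 0.261, limma adjusted p = 0.0413). The lowest LPS array was the dim one, and without the 2 dimmest arrays ATP5MC3 stood at −0.36 (limma adjusted p = 0.332). ATP5F1C, the gamma subunit of the rotating shaft, differed by −0.40 (SE 0.141, limma adjusted p = 0.0346) and was named after its values were seen. The catalytic subunit gene ATP5F1B was not called, with 15.15, 15.39 and 15.57 with LPS, against 15.20, 15.50 and 15.66 in controls. Its difference was −0.08, with a 95% confidence interval of −0.39 to 0.23, and its partner ATP5F1A differed by −0.27 (limma adjusted p = 0.153).

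**Figure D3:**
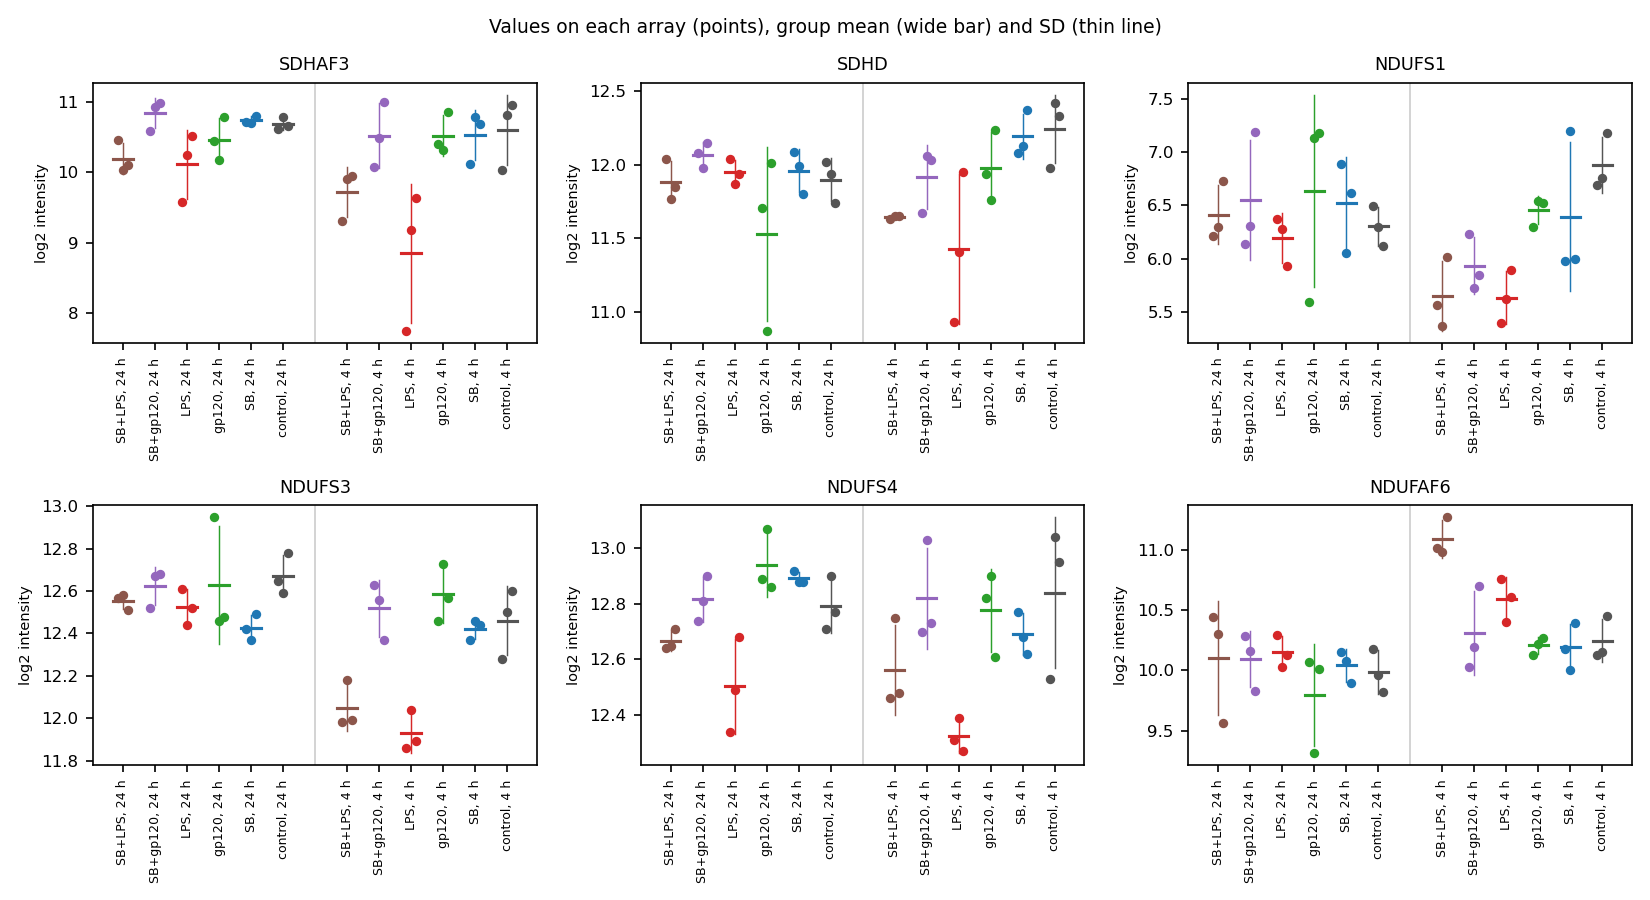
Log2 intensity on every array for 5 members that were lower with LPS at 4 h (SDHAF3, SDHD, NDUFS1, NDUFS3 and NDUFS4) and for NDUFAF6; points are arrays, wide bars group means and thin lines the SD (n = 3), with 24 h left and 4 h right of the grey line and a separate scale per gene. NDUFAF6 is highest with SB+LPS at 4 h, at 10.98 to 11.27.

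Several further subunits were not called at 4 h. COX4I1, a regulatory subunit of complex IV, differed by −0.21 (95% confidence interval −0.48 to 0.06). COX7A2L, a supercomplex factor, differed by −0.02 (limma adjusted p = 0.947), and NDUFV2, a core subunit beside NDUFV1, by −0.17 (limma adjusted p = 0.441). NDUFB8 differed by −0.03 (95% confidence interval −0.34 to 0.29), the assembly factor NDUFAF3 by −0.20 (limma adjusted p = 0.357) and UQCRHL by −0.22 (limma adjusted p = 0.416). UQCRHL is a near copy of UQCRH, so their signals cannot be told apart. COXFA4 (formerly NDUFA4), COXFA4L2 and COXFA4L3 (C15orf48) were not members, and none was called in any comparison in the main test. With equal medians of all probes 1 of these 3 genes was called lower with LPS at 4 h. For 75 of the 88 members (85.2%) the 95% confidence interval of the LPS difference at 4 h lay within a 2-fold change, against 61.8% of all genes. The LPS and control arrays at 4 h were on different slides, so the intervals for LPS at 4 h leave out any difference between slides. With slide as a block the median standard error over all genes was 0.469 in place of 0.234. The intervals also hold for 1 scaling only: with equal medians of all probes the members' median was −0.71.

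Arrays at 4 h also differed by replicate. In each of the 6 groups at 4 h, replicate 1 had the lowest mean deviation over the 76 subunit genes, between −0.246 and −0.145, whereas the other 12 arrays at 4 h lay between −0.059 and 0.101. In complex III replicate 1 lay between −0.508 and −0.239 and the other 12 arrays between −0.170 and 0.150. The mitochondrial ribosomal proteins were likewise lowest in replicate 1 of all 6 groups (−0.268 to −0.060), and the cytosolic ribosomal proteins in 4 of the 6. The order of the subunit genes held in groups with and without LPS, and on both slides that held arrays of 4 h. No such order by replicate number was present at 24 h, where the subunit means lay between −0.016 and 0.197.

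**Figure D4:**
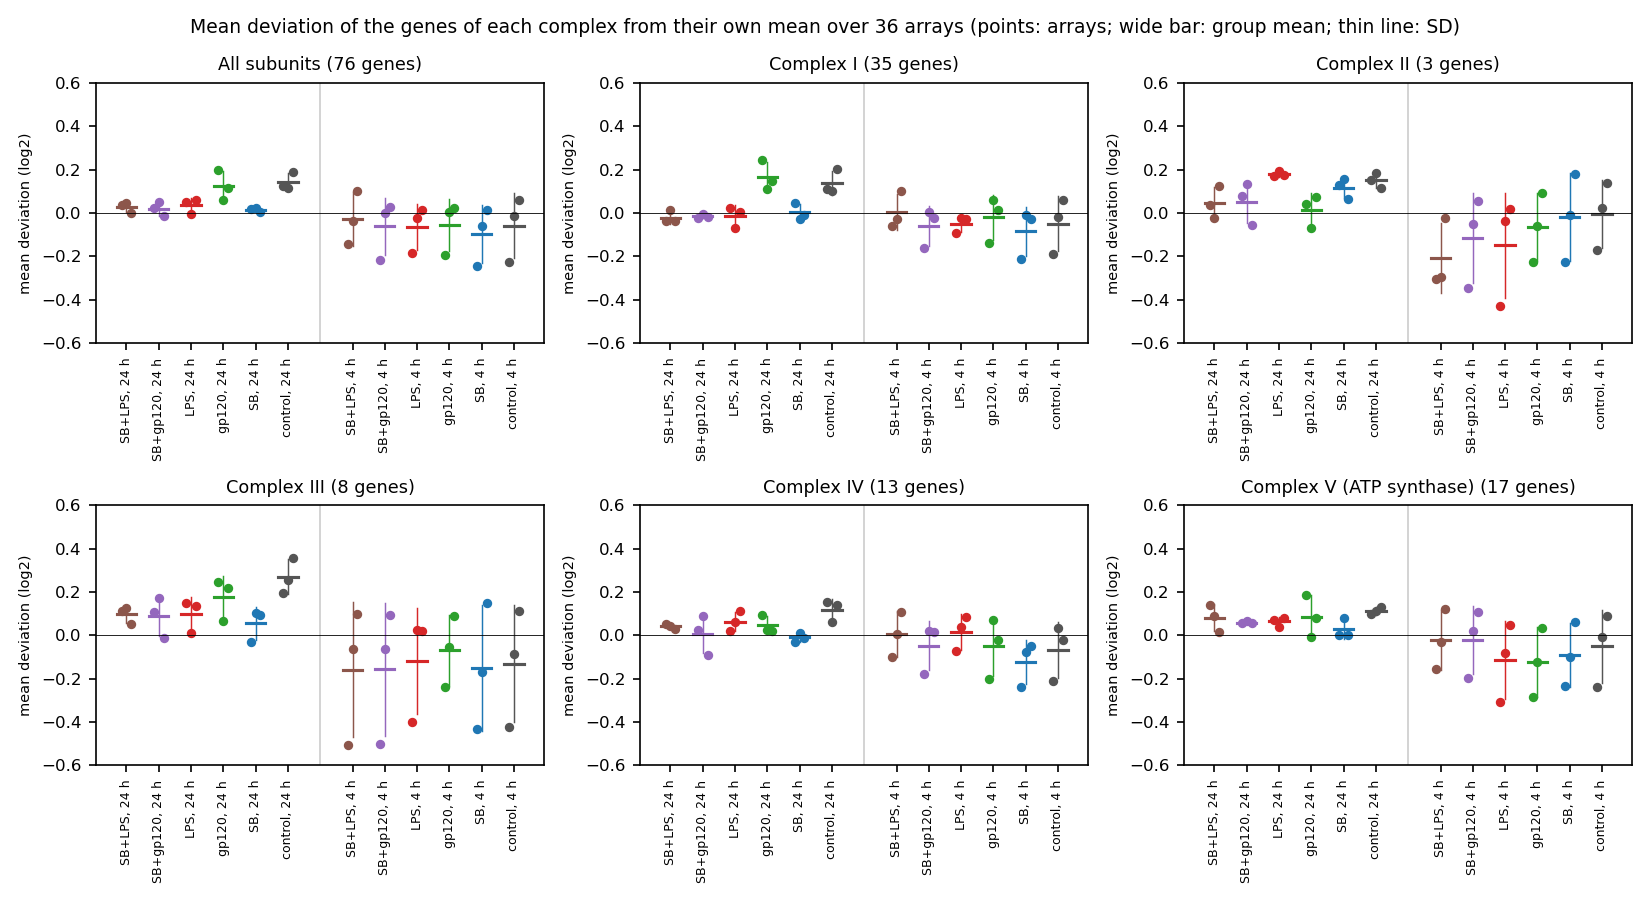
Mean deviation of the genes of each complex from their own mean over the 36 arrays (log2), for all 76 subunits and for complexes I to V; points are arrays, wide bars group means and thin lines the SD (n = 3), with 24 h left and 4 h right. Replicate 1 is the lowest point of all 6 groups at 4 h in the panel of all subunits (−0.246 to −0.145).

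With SB present, LPS at 4 h raised 4 members and lowered 1. SB+LPS arrays were compared with arrays of SB alone, and all 6 were on the same slide. The members called were 5.68% of 88, against 15.6% of all genes (6.04% higher and 9.55% lower), and the median difference was 0.08 for the members and −0.09 for all genes. The balance turned with the scaling: 0 rose and 9 fell with equal medians of all probes, and 17 rose and 1 fell with medians of detected probes. NDUFA13 and NDUFB11, higher with LPS alone, were also higher here. The LPS difference with SB minus that without SB, tested directly at 4 h, called 0 members in limma (2 at an unadjusted p under 0.05), against 0.14% of all genes. At 24 h it likewise called 0 members (2 at an unadjusted p under 0.05), against 0.133% of all genes. Neither test was free of slide. At 4 h the controls lay on another slide than the LPS, SB and SB+LPS arrays. At 24 h the SB+LPS arrays lay on another slide than the LPS, SB and control arrays. With slide as a block the median standard error over all genes was 0.469 in place of 0.332 at both times.

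NDUFA13 measured 11.68, 11.61 and 12.03 with SB+LPS at 4 h, against 11.20, 11.28 and 11.04 with SB alone. The groups did not overlap, and the difference was 0.60 (SE 0.176, limma adjusted p = 0.0177). NDUFB11 measured 12.16, 12.43 and 12.65 with SB+LPS, against 11.96, 11.95 and 12.13 with SB alone. The gap between its groups was small, and the difference was 0.40 (SE 0.134, limma adjusted p = 0.0411). With the arrays scaled to equal medians of all probes these stood at −0.01 and −0.09.

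NDUFAF6, a factor needed for complex I assembly, measured 11.01, 10.98 and 11.27 with SB+LPS at 4 h, against 10.18, 10.00 and 10.39 with SB alone. These groups were far apart, with a difference of 0.90 (SE 0.21, limma adjusted p = 0.00322). LPS without SB gave 10.76, 10.40 and 10.61, against 10.13, 10.15 and 10.45 in controls, where the groups overlapped and the difference was 0.35 (limma adjusted p = 0.228). The difference between the LPS differences with and without SB was 0.55 and was not called (limma adjusted p = 0.761). ATP5F1E, the epsilon subunit of ATP synthase, measured 8.94, 9.02 and 9.05 with SB+LPS, against 8.87, 8.28 and 8.56 with SB alone. It differed by 0.44 (SE 0.134, limma adjusted p = 0.0248).

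SDHAF1, like SDHAF3 a factor for the iron-sulfur subunit of complex II, measured 8.73, 8.96 and 9.24 with SB+LPS at 4 h, against 9.35, 9.62 and 9.51 with SB alone. It was lower on all SB+LPS arrays (−0.52, SE 0.158, limma adjusted p = 0.0235), and stood at −0.39 (limma adjusted p = 0.162) without the 2 dimmest arrays. SDHAF3 itself was not called, with 9.31, 9.90 and 9.94 in SB+LPS, against 10.12, 10.78 and 10.69 with SB alone (−0.81, limma adjusted p = 0.0966). SDHD (−0.56, limma adjusted p = 0.0863) and NDUFS3 (−0.38, limma adjusted p = 0.0503) were not called either. With the replicate number as a block within each time, 10 members were called, 4 higher and 6 lower, and the fall of SDHAF3 (limma adjusted p = 0.00978), SDHD (limma adjusted p = 0.0329) and NDUFS3 was then among them.

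Set directly against LPS alone, SB+LPS at 4 h differed in 0 members (10 at an unadjusted p under 0.05), against 2.16% of all genes. SDHAF3 measured 9.31, 9.90 and 9.94 with SB+LPS, against 7.74, 9.18 and 9.63 with LPS alone. The groups overlapped (0.87, limma adjusted p = 0.179), although the replicate block within each time gave SDHAF3 (limma adjusted p = 0.0204) and NDUFA8 (0.44, limma adjusted p = 0.0491) as higher. At 24 h, SB+LPS differed from LPS alone in 0 members (0 at an unadjusted p under 0.05), against 1.03% of all genes. In that comparison the 95% confidence interval lay within a 2-fold change for 88 of 88 members, against 83% of all genes. The SB+LPS and LPS arrays at 24 h were on different slides, so these intervals leave out any difference between slides. With slide as a block the median standard error over all genes was 0.524 in place of 0.234.

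By 24 h the LPS differences were small. Against control, 1 member fell and 0 rose (1.14% of members), against 11.9% of all genes in either direction and 5.28% lower. The median was −0.11 over members and −0.06 over all genes. All LPS and control arrays at 24 h were on the same slide. NDUFB9 measured 12.77, 12.76 and 12.84 with LPS, against 13.26, 13.19 and 13.50 in controls. The groups did not overlap, with a difference of −0.52 (SE 0.166, limma adjusted p = 0.0348), and the call was lost when any LPS array, or replicate 1 or 3 of the controls, was left out. In complex III 0 of 8 genes lay above 0, against 43.1% of all genes, with values between −0.31 and −0.02 and none called. With SB alone against the same controls 1 of 8 lay above 0, and among the 12 groups the controls at 24 h had the highest mean for complex III (0.27). SDHAF3 measured 9.57, 10.25 and 10.52 with LPS at 24 h, against 10.61, 10.79 and 10.66 in controls, a difference that was not called (−0.57, limma adjusted p = 0.319).

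With SB present at 24 h, LPS lowered 1 member (1.14%), against 5.23% of all genes in either direction and 1.88% lower. NDUFA5, an accessory subunit of complex I, measured 6.23, 6.26 and 5.88 with SB+LPS, against 7.29, 6.72 and 7.69 with SB alone. The groups did not overlap, with a difference of −1.11 (SE 0.277, limma adjusted p = 0.0116). The control arrays of NDUFA5 at 24 h, at 6.17, 6.40 and 5.95, were near the SB+LPS arrays, and SB alone differed from control by 1.06 (limma adjusted p = 0.0617). The replicate block called 2 members, the other being the methyltransferase and assembly factor NDUFAF7 (0.44, limma adjusted p = 0.0441). The SB+LPS and SB arrays at 24 h were on different slides, and slide as a block gave 0.24 for NDUFA5.

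The response of 5 members to LPS differed between 24 h and 4 h. The difference at 24 h minus that at 4 h was tested directly, and 5 members (5.68%) were lower and 0 higher, against 12.2% of all genes in either direction and 4.87% lower. NDUFB9 differed by −0.52 at 24 h and 0.55 at 4 h, so the change between times was −1.08 (SE 0.235, limma adjusted p = 0.00245). NDUFA13 differed by −0.29 at 24 h and 0.68 at 4 h (change −0.97, SE 0.249, limma adjusted p = 0.00974). All 5 were called higher with LPS at 4 h, and of them only NDUFB9 was called at 24 h.

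NDUFV1 differed by −0.33 at 24 h and 0.58 at 4 h (change −0.91, SE 0.247, limma adjusted p = 0.0144). NDUFB11 differed by −0.18 at 24 h and 0.57 at 4 h (change −0.75, SE 0.19, limma adjusted p = 0.00861). UQCRC1 differed by −0.22 at 24 h and 0.51 at 4 h (change −0.73, SE 0.233, limma adjusted p = 0.0363). In these genes the LPS arrays lay below or among the controls at 24 h and above them at 4 h. With slide as a block none of the 5 was called, and without the 2 dimmest arrays UQCRC1 was not (−0.68, limma adjusted p = 0.0845). With the arrays scaled to equal medians of all probes none of the 5 was called, and 10 other members were called higher at 24 h relative to 4 h, where the median of all genes stood at 0.63.

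**Figure D5:**
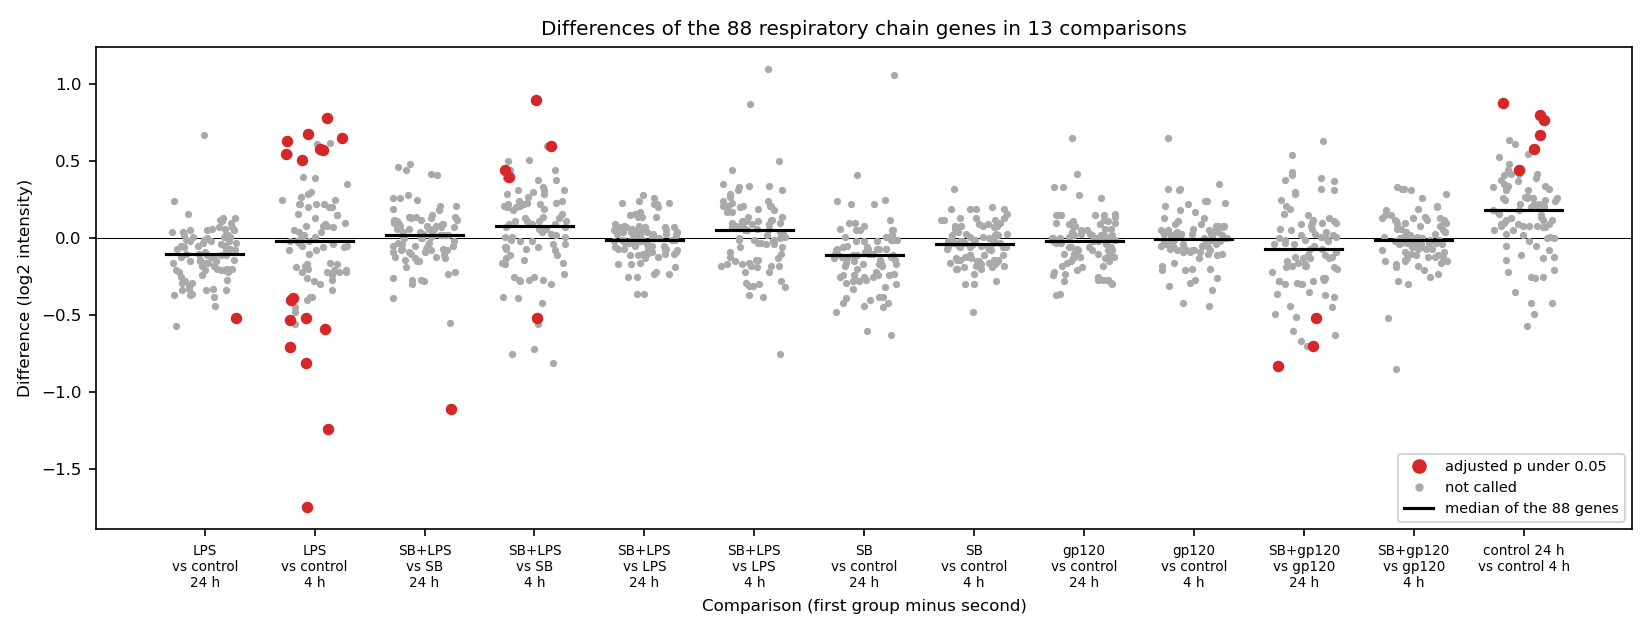
Differences (log2 intensity, first group minus second) of the 88 genes in 13 comparisons; each point is a gene, red where the limma adjusted p is under 0.05, and the black bar is the median of the 88. The most red points are in LPS against control at 4 h (17), and the gp120 comparisons with control have none.

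gp120 alone was followed by 0 calls among the members at both times, and by 0 calls among all genes (0% of 13582). At an unadjusted p under 0.05 there were 2 members at 24 h and 2 at 4 h. The 95% confidence interval lay within a 2-fold change for 84 of 88 members at 24 h and 85 of 88 at 4 h. Changes within those intervals were not detectable with 3 arrays a group. SB alone differed from control in 0 members at 24 h (9 at an unadjusted p under 0.05), against 0.913% of all genes, and in 0 members at 4 h (0 at an unadjusted p under 0.05), against 0.14%. The SB and control arrays at 4 h were on different slides.

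SB with gp120 lowered 3 complex I subunits relative to gp120 alone at 24 h (3.41% of members), against 4.64% of all genes in either direction and 2.13% lower. NDUFA13 measured 11.01, 11.36 and 10.63 with SB+gp120, against 11.74, 11.95 and 11.79 with gp120 alone. All SB+gp120 arrays were lower (−0.83, SE 0.176, limma adjusted p = 0.00666). NDUFB11 measured 12.27, 12.14 and 11.89 with SB+gp120, against 12.68, 12.72 and 12.45 with gp120 alone, also without overlap (−0.52, SE 0.134, limma adjusted p = 0.0252). NDUFB7, an accessory subunit, measured 11.39, 11.41 and 10.41 with SB+gp120, against 11.97, 11.96 and 11.38 with gp120 alone, with overlap (−0.70, SE 0.195, limma adjusted p = 0.0353). The arrays compared were on different slides. Slide as a block called none, and without replicate 3 of SB+gp120 none was called. At 4 h SB+gp120 differed from gp120 alone in 0 members (2 at an unadjusted p under 0.05), against 0.184% of all genes, and the replicate block within each time gave 1, NDUFA10 (−0.85, limma adjusted p = 0.0361). The arrays compared at 4 h were also on different slides.

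Control cells themselves differed between times in 6 members. Controls at 24 h were higher than controls at 4 h in 5 genes of complex I and 1 of complex III, 6.82% of the members, against 9.33% of all genes in either direction and 4.26% higher. The difference was above 0 in 68 of 88 members (77.3%), against 51.2% of all genes, and its median was 0.18 for members and 0.01 for all genes. The 2 sets of arrays were on different slides, so slide and time cannot be told apart within the controls. The calls also rested on single arrays: without replicate 1 of the controls at 4 h, the low replicate described above, or without replicate 3 of the controls at 24 h, 0 members were called.

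NDUFA10, an accessory subunit of complex I, measured 10.53, 10.62 and 10.92 in controls at 24 h, against 9.44, 9.80 and 10.19 in controls at 4 h. The 24 h arrays were all higher (0.88, SE 0.242, limma adjusted p = 0.0209). UQCR10, a small subunit of complex III, measured 9.55, 9.75 and 10.03 at 24 h, against 8.36, 9.12 and 9.46 at 4 h (0.80, SE 0.242, limma adjusted p = 0.0359). NDUFA3, a membrane arm subunit, measured 12.44, 12.27 and 12.43 at 24 h, against 11.55, 11.49 and 11.79 at 4 h. No arrays of these genes overlapped, and NDUFA3 differed by 0.77 (SE 0.211, limma adjusted p = 0.0207). NDUFV1 (0.67, limma adjusted p = 0.0147), NDUFB6 (0.58, limma adjusted p = 0.0389) and NDUFB11 (0.44, limma adjusted p = 0.0364) were the others, the last named after its values were seen. With the arrays scaled to equal medians of all probes none of the 6 was called and 3 other members were called lower.

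Genes around the respiratory chain were counted in the same way, to be read against 26.7% of all genes called with LPS at 4 h (10.5% higher, 16.2% lower) and 15.6% with SB present (9.55% lower). Of 17 regulators of mitochondrial biogenesis, 7 fell and 0 rose with LPS at 4 h (41.2% called), among them POLG2, the accessory subunit of the mitochondrial DNA polymerase (−1.43, SE 0.36, limma adjusted p = 0.00382), TFB1M, a mitochondrial rRNA methyltransferase (−1.16), POLRMT, the mitochondrial RNA polymerase (−0.79, limma adjusted p = 0.000193), and the coactivator PPARGC1B (−1.05, limma adjusted p = 0.0473). With SB present, 5 fell and 0 rose (29.4%), including POLG2 (−1.75) and PPARGC1B (−1.47). With LPS alone the falls numbered 12 and 5, with 0 rises, under the scalings to medians of all probes and of detected probes. They numbered 3 without the 2 dimmest arrays and 0 with slide as a block. With SB, where the arrays share a slide, the falls numbered 11, 3, 6 and 5 in the same order. With LPS alone TFB1M stood at −0.65 (limma adjusted p = 0.121) without the 2 dimmest arrays and at −0.05 with slide as a block. With SB and slide as a block TFB1M was not called (−0.32, limma adjusted p = 0.536). PPARGC1B was not called with medians of detected probes, without SB (−0.83, limma adjusted p = 0.0729) or with it (−0.84, limma adjusted p = 0.0872). Of 36 other assembly factors, 6 fell and 1 rose with LPS alone (19.4%, below the share of all genes), among the falls COA7 (−1.19), COX11 (−1.11), TMEM126B (−1.06) and UQCC3 (−1.05), and 2 fell and 0 rose with SB present (5.56%, also below it), COA7 (−1.52) and TMEM70 (−0.81). With LPS alone, 32 assembly factors fell and 0 rose with equal medians of all probes, and 1, COA7, fell with slide as a block. At 24 h, where 11.9% of all genes were called, 1 regulator rose, the helicase TWNK (0.58), and 2 assembly factors fell, ACAD9 (−0.67) and UQCC3 (−0.63).

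With LPS at 4 h, the shares called in the remaining lists were near or below the 26.7% of all genes. Of 76 mitochondrial ribosomal proteins, 1 rose and 9 fell (13.2%), and of 74 cytosolic ribosomal proteins, 3 rose and 1 fell (5.41%). With equal medians of all probes 65 mitochondrial and 21 cytosolic ribosomal proteins fell, and with slide as a block 0 of either were called. Of 11 genes of coenzyme Q synthesis, 1 rose and 2 fell (27.3%). The falls were COQ8B (−1.17) and COQ2 (−0.69). Of the 11, 10 lay below 0 and 1 above it (9.09%, against 42.9% of all genes), with a median of −0.4. COQ8A fell with LPS at 4 h in the presence of SB (−2.01), and COQ7 (−0.79) and COQ6 (−0.61) fell with LPS at 24 h. The 1 rise at 4 h was that of PDSS1, which makes the side chain of coenzyme Q. PDSS1 was higher with LPS at 4 h without SB (1.22, SE 0.15, limma adjusted p = 3.97e-07) and with SB (1.31, SE 0.15, limma adjusted p = 1.55e-07), and was not called at 24 h (0.04). With equal medians of all probes it stood at 0.44 (limma adjusted p = 0.192) without SB and 0.73 (limma adjusted p = 0.0448) with SB. With slide as a block PDSS1 stood at 0.98 (limma adjusted p = 0.0709) without SB, and no gene of the coenzyme Q, tricarboxylic acid cycle or glycolysis lists was called with LPS at 4 h; ALDOA turned to −0.38. The tricarboxylic acid cycle list held 17 genes, some of them of pyruvate dehydrogenase, which feeds the cycle. At 4 h 2 of the list rose and 2 fell (23.5%). The rises were the cycle genes DLST (0.60) and CS (0.46). The falls, DLAT (−0.93) and PDHB (−0.73), were genes of pyruvate dehydrogenase. None of the list was called with LPS at 24 h. DLST and CS stood at −0.24 and −0.10 with equal medians of all probes, and PKM and ALDOA (below) at 0.35 and 0.18, uncalled. Without the 2 dimmest arrays DLST was not called (0.53, limma adjusted p = 0.116). Of 18 glycolytic genes, PKM and ALDOA rose and HK2 fell at 4 h (1.07, 0.77 and −1.12; 16.7% called), and at 24 h (also 16.7%, against 11.9% of all genes) PKM (0.97) and HK1 (1.78, SE 0.168, limma adjusted p = 3.69e-09) rose and HK3 fell (−0.89). The carriers CYC1, a complex III subunit by function, and CYCS, cytochrome c, were not called at 4 h (−0.07 and 0.19).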

How the data were processed

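RNA of THP-1 cells, 3 biological replicates of each of 12 groups, was hybridised to 36 Illumina HumanHT-12 v4 arrays; per the labels it was extracted with Trizol and RNeasy columns. The deposited table held, per the file headers, bead intensity with its detection p-value per array (47222 probes), and 72 further columns (bead numbers and bead standard errors) were not used. The authors also deposited log2 values, which equalled the log2 of quantile-normalised raw intensity to within 0.000791 and were used as an alternative. The series text names GeneSpring GX. No genome build was given in the sources used here. Mean raw intensity per array was 403.4 to 1572, and 34.8 to 44.38% of probes were detected; the number of arrays limits the precision.

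Intensities were background-corrected from the detection p-values, quantile-normalised and log2-transformed (neqc, offset 16, limma 3.58.1 in R 4.3.3). Probes with detection p under 0.05 on 3 or more arrays were kept (26473). Symbols came from the platform annotation, updated by gene ID from RefSeq (30073 probes matched). A single symbol was given for 30112 probes, several for 8 and none for 17102, and the last 2 kinds were left out. The probe with the highest mean stood for each of 13582 genes (3777 had more than 1 detected probe), and no member had probes called in opposite directions. A group-means model was fitted to all arrays with lmFit and eBayes. Tests were two-sided, adjusted by Benjamini-Hochberg within a comparison. The script was tested on simulated data.

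Slides (3, of 12 arrays) were read from array names. At 24 h, SB+LPS and SB+gp120 were on slide 2 and the remaining groups on slide 1. At 4 h, control and gp120 were on slide 2 and the remaining groups on slide 3. Replicate numbers were taken as pairing where all correlations of same-numbered deviations passed 0.1. This held for all 6 comparisons at 4 h (0.123 to 0.696) and for SB+LPS against SB at 24 h (0.104 to 0.343), not for the others (−0.0371 at the lowest). The main tests did not use this pairing at either time, and replicate blocks were fitted only as alternatives.

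Members and gene lists were chosen with earlier results of these data known. The text names, per comparison, the called members with the 5 largest rises and the 5 largest falls, the member of highest mean in each complex, a fixed list of genes, and up to 4 called genes per other list. The fixed list included SDHB, which was not matched. The alternatives were no background correction, other scalings, the authors' values, other detection filters, the mean of a gene's probes, replicate and slide blocks, other variance models, fits on the compared groups alone, and leaving out each array. Scaling to probes detected on all arrays and leaving out the 2 dimmest arrays were added after seeing the data, as were list counts and ranges under other settings. Members named for their range, or called in an alternative alone, were also chosen after their values were seen. Promoters came from RefSeq on GRCh38.p14.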

Additional observations from a re-analysis of the deposited data

Results flagged for a closer look

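The LPS difference at 24 h was set against that at 4 h in a direct test of the difference between times, and 5 members (5.68%) differed, all of them lower at 24 h, against 12.2% of all genes in either direction and 4.87% lower, a share near that of all genes. The changes (24 h minus 4 h, log2) were −1.08 for NDUFB9, −0.97 for NDUFA13, −0.91 for NDUFV1, −0.75 for NDUFB11 and −0.73 for UQCRC1. The arrays of both times lay on different slides, and none of the 5 was called with slide as a block or with equal medians of all probes.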

How the results depend on the processing

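The counts of members called stayed within 1.5 times in 169 of 207 trials of other settings (leaving out single arrays apart). Trials with 0 calls under both the main and the other setting were included among the 169. An equal count can also rest on other genes. For LPS at 24 h, medians of detected probes called 1 member, which was not NDUFB9. For LPS against control at 4 h (17 called) the count was 51 with arrays scaled to equal medians of all probes (1 higher, 50 lower), 0 with slide as a block, 4 with only the groups compared in the fit and 8 without the 2 dimmest arrays. The members' median there was −0.71 with equal medians of all probes and 0.14 with equal medians of probes detected on all arrays. For SB+LPS against SB at 4 h (5) the counts were 9 (0 higher, 9 lower) and 18 (17 higher, 1 lower) under these scalings and 1 with only the groups compared. For controls at 24 h against 4 h (6) they were 3 (0 higher, 3 lower) with equal medians of all probes, 10 with the replicate block and 0 with slide; the replicate block within each time could give no value, since blocks and times coincide. For the change of the LPS difference between times (5) they were 10 (10 higher, 0 lower) and 9 (0 higher, 9 lower) under the 2 scalings and 0 with slide. For SB+gp120 against gp120 at 24 h (3) they were 0 with equal medians of all probes, slide or only the groups compared, and 1 with medians of detected probes. For LPS at 24 h (1) the count was 0 with equal medians of all probes. For SB+LPS against SB at 24 h (1) it was 2 with only the groups compared, with the authors' values or with no background correction, and 0 with equal medians of all probes or slide. For SB against control at 24 h (0) it was 1, NDUFA5, under both scalings and without the 2 dimmest arrays.

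With the replicate block the counts were 18 for LPS at 4 h, 7 for SB+LPS against SB at 4 h, 2 for SB+LPS against SB at 24 h, 5 for SB+gp120 against gp120 at 24 h, 8 for the change between times and 1 for SB at 24 h. With the replicate block within each time they were 24, 10, 2, 10, 13 and 1 in that order, 3 for LPS at 24 h, 2 for SB+LPS against LPS at 4 h and 1 for SB+gp120 against gp120 at 4 h. At 24 h, SB+LPS against SB apart, and between times the samples share only a number.

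Leaving out 1 array at a time gave 8 to 18 calls for LPS at 4 h (8 without its replicate 1, 10 without replicate 2 of the controls), 2 to 4 for SB+LPS against SB at 4 h (2 without replicate 3 of SB+LPS or replicate 2 or 3 of SB, 3 without replicate 1 of SB+LPS), 0 to 1 for SB+LPS against LPS at 4 h (1 without replicate 3 of LPS), 0 to 1 for LPS at 24 h, 0 to 1 for SB+LPS against SB at 24 h (0 without replicate 3 of either group), 0 to 1 for SB at 24 h (1 without replicate 2 of SB), 0 to 6 for SB+gp120 against gp120 at 24 h (0 without replicate 3 of SB+gp120, 5 without its replicate 1, 1 without replicate 2 and 6 without replicate 3 of gp120), 0 to 7 for controls at 24 h against 4 h (1 without replicate 2 at 4 h, 3 without replicate 1 or 2 at 24 h) and 4 to 8 for the change between times (8 without replicate 3 of LPS at 4 h). The members' median for LPS at 4 h ran from −0.12 to 0.05, and at 24 h from −0.12 to −0.07.

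Under 2 settings called members turned sign. With equal medians of all probes, LPS at 4 h gave NDUFA11 −0.03, NDUFA13 −0.11, COX6A1 −0.06, NDUFV1 −0.22, NDUFB11 −0.17, NDUFB9 −0.02 and UQCRC1 −0.29, SB+LPS against SB at 4 h gave NDUFA13 −0.01, ATP5F1E −0.31 and NDUFB11 −0.09, and the change between times gave UQCRC1 0.07, and controls at 24 h against 4 h gave NDUFB11 −0.03. With slide as a block, LPS at 4 h gave NDUFA11 −0.55, NDUFA13 −0.22, NDUFV1 −0.20, NDUFB11 −0.21, NDUFB9 −0.30, UQCRC1 −0.22, SDHD 0.06 and NDUFAB1 0.18, SB+LPS against SB at 24 h gave NDUFA5 0.24, SB+gp120 against gp120 at 24 h gave NDUFB7 0.13, and the change between times gave NDUFB11 0.03 and UQCRC1 0.00. The causes were not tested. SDHAF3 with LPS at 4 h was called in 18 of 19 trials (−2.57 to −0.58), slide being the exception, and NDUFAF6 with SB+LPS against SB in 18 of 19 (0.22 to 1.00). Members near background (NDUFS1, COX6B2) are limited by signal.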
